A study of Mus musculus with 16 samples.

Results

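The enzymes that write and remove cytosine methylation were followed at the mRNA level in lineage-depleted mouse bone marrow. The group was chosen by name and held 8 of the 27998 genes in the count matrices: the DNA methyltransferases *Dnmt1*, *Dnmt3a* and *Dnmt3b*, the dioxygenases *Tet1*, *Tet2* and *Tet3*, and the isocitrate dehydrogenases *Idh1* and *Idh2*. Each had a single row in all 8 matrices. All mice were C57BL/6 animals of 6 to 12 weeks by the labels (8 to 12 weeks by the study's methods) carrying floxed *Tet2* alleles (*Tet2* fl/fl). The WT mice carried no Cre. In the *Tet2*-KO mice Cre was driven by *Vav*, which is active across the blood system from the stem cell on, so every blood lineage was targeted. Mice of both genotypes received 500 ng of IL1β per mouse and day for 5 weeks by intraperitoneal injection, or vehicle. Each of the 4 groups had 4 mice, and cells from 2 mice of the same group were tagged with hashtag antibodies and pooled in each of 8 single-cell libraries. Mice 1 and 2 of a group shared a library, as did mice 3 and 4.

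DNMT1 copies methylation onto the new DNA strand after replication, while DNMT3A and DNMT3B place methyl groups on unmethylated sites. The TET enzymes oxidise 5-methylcytosine to 5-hydroxymethylcytosine and further forms, which opens the way to its loss. They need 2-oxoglutarate, which IDH1 makes in the cytosol and IDH2 in mitochondria. In blood, mutations of *TET2* and *DNMT3A* are the most common events in clonal haematopoiesis, and mutant IDH1 and IDH2 make 2-hydroxyglutarate, which blocks the TET enzymes.

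In the GENCODE vM21 annotation of GRCm38, *Tet1* lies on the minus strand at chr10:62804570-62908996, *Tet2* on the minus strand at chr3:133463679-133545139 and *Tet3* on the minus strand at chr6:83362373-83459084. *Dnmt1* lies on the minus strand at chr9:20907209-20959888, *Dnmt3a* on the plus strand at chr12:3806007-3914443 and *Dnmt3b* on the plus strand at chr2:153649450-153687730. *Idh1* is on the minus strand at chr1:65158616-65186500 and *Idh2* on the minus strand at chr7:80094846-80115392.

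*Tet2* and *Idh1* were the members with the most tests called higher after IL1β in both genotypes, so the 250 bases before a RefSeq start of each are shown here with CG dinucleotides in capitals, 5′ to 3′ on the strand of the gene (GRCm38.p6). The *Tet2* window, chr3:133544391-133544640 on the minus strand, lies in an intron of a longer annotated transcript. It held 51 CG dinucleotides, more than 99.9% of 32851 such windows over all RefSeq starts, whose median was 6. The *Idh1* window, chr1:65186480-65186729 on the minus strand, held 18, more than 78.3% of windows.
Tet2: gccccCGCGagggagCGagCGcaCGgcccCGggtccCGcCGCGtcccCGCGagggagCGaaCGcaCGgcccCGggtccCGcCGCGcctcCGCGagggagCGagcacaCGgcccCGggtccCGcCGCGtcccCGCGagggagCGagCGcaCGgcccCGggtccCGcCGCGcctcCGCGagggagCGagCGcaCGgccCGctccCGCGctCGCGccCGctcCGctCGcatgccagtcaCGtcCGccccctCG
Idh1: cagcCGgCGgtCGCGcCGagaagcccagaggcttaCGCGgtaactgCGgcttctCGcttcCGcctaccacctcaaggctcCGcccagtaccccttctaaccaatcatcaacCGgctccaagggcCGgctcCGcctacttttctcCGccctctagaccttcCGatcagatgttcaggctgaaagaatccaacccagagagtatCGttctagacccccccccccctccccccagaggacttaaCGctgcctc

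Both strands of these windows were searched for a common form of the NF-κB site, since IL1β acts through NF-κB. It occurred in no window of the 8 genes and in 1.41% of all windows. The letters TTTNGCGC, a form of the E2F site of genes used in S phase, occurred in 1.13% of all windows. Among the members they occurred only in *Dnmt1*, in 1 of its windows and not in those before its other RefSeq starts. The 30 bases around that match, chr9:20952823-20952852 on the minus strand, are shown with the matching letters in capitals. A match is a description of the letters in the window and says nothing about binding.
Dnmt1: gtttccgcgcGCGCGAAAaagccggggtct

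The matrices held 121405 cell barcodes, and 94917 of them remained after a minimum of 750 genes seen and a limit of 10% of UMIs (counted molecules) from mitochondrial genes. Hashtags assigned 57896 of these to a mouse, marked 3938 as doublets and left 33083 without a call. The 28 pairs of libraries shared between 11 and 57 cell barcodes. Assigned cells numbered 698 to 6432 per mouse with 4388604 to 44152768 UMIs. Sex is not given in the labels. The counts showed 1 female mouse in each WT group and 2 in each *Tet2*-KO group. The hashtags were not clean in all libraries: *Xist*, an RNA of female cells, was found in 21.5% of the cells of WT IL1β mouse 3 and 10.6% of those of WT vehicle mouse 2, which were otherwise male. A simple ratio of the hashtags gave the same mouse for 98.1% to 100% of the cells both methods called in 6 libraries, but for 80.1% in that of WT vehicle mice 1 and 2 and 75.9% in that of *Tet2*-KO vehicle mice 1 and 2. In the latter it gave mouse 1 only 62 cells, against 4214, and it gave WT vehicle mouse 1 only 76 against 4159 and *Tet2*-KO IL1β mouse 2 only 350 against 4485. Both mice of a library belong to the same group, so such errors mix mice and not groups. Mixing can make the 2 mice of a library look more alike and so narrow the spread between mice. By how much was not measured. Cells were sorted into 20 types by marker genes, none of them a member, and a type is called "-like" for that reason. The HSC-like gate (hematopoietic stem cell) held 1411 cells. Its marker *Hlf* was found in 86.0% of them and 8.46% of other cells, and 92.1% lay in the HSC-like cluster of an unsupervised grouping. No cluster carried the name of the multipotent progenitor-like gate, so those 4549 cells rest on the markers alone, as do the plasmacytoid dendritic-like cells. The share in the cluster of the same name was 85.4% for granulocyte progenitors, 66.5% for monocytes, 51.6% for CFU-E-like cells, 49.0% for immature myeloid, 38.8% for megakaryocyte-erythroid and 27.5% for monocyte-primed progenitors. Among 84381 gated cells, 9061 lay close to a gate's limit.

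Levels are the UMIs of a gene as counts per 1000000 UMIs of the cell type in a mouse (CPM), given for each mouse or as mean ± SD over mice. They are compared between cell types and groups, and not between genes. Counts were summed by mouse, and differences between groups are log2 fold changes with SE under edgeR's quasi-likelihood test after TMM scaling, with Benjamini-Hochberg adjustment over all genes tested in the type. A test was called at an adjusted p under 0.05. The 4 contrasts share groups, and mice of the same library may vary together. In these sums, fewer cells with a transcript and less RNA per cell cannot be told apart.

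Of the de novo enzymes, *Dnmt3a* stood highest in megakaryocyte progenitor-like cells of WT vehicle mice, at 105, 171, 171 and 98.9 CPM in the 4 mice. Next in the order, which ranks types by mean log2(CPM + 1), were common lymphoid progenitor-like cells at 77.2 ± 18.1 CPM (SD, n = 4). Over the 11 mice with both types the megakaryocyte progenitors were higher in 10 (mean log2 difference 0.63, exact two-sided permutation test of signs within mice, adjusted p = 0.026 over 128 pairs of neighbouring types). In all, 30 of the 128 pairs passed, 27 in the order of the WT vehicle mice and 3 against it. These tests include the WT vehicle mice, which set the order. In the 12 other mice, a check added after seeing the data, 23 of the 30 passed, and this step did not (0.54, exact permutation test, adjusted p = 0.20 over 7 mice). When each cell was thinned to 1500 UMIs, which leaves fewer counts, 24 of the 30 were lost and 7 pairs passed in all. This step was then 0.55 (exact permutation test, adjusted p = 0.866). HSC-like cells held 73.2 ± 17.8 CPM and multipotent progenitor-like cells 63.5 ± 27.5 CPM, with plasmacytoid dendritic-like cells between them in the order (77.2 ± 40.6 CPM, n = 3), and no step between neighbours from common lymphoid to multipotent progenitors passed the test. The level then fell through immature myeloid progenitors (44.9 ± 2.52 CPM) and granulocyte progenitors (36.7 ± 3.74 CPM) to monocyte-like cells (11.4 ± 7.64 CPM) and erythroblast-like cells (7.97 ± 7.69 CPM). In 11 of the 12 mice outside the WT vehicle group, since 1 *Tet2*-KO IL1β mouse had under 10 erythroblast-like cells, megakaryocyte progenitors were above erythroblasts in 11 of 11, with a mean log2 difference of 3.39 (exact permutation test, adjusted p = 0.0013 over the 8 members).

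*Dnmt3b* was a transcript of immature cells. It reached 48.3, 54.3, 58.8 and 52.7 CPM in multipotent progenitor-like cells of the WT vehicle mice and 49.9 ± 21.0 CPM in HSC-like cells, and these did not differ beyond the spread between mice. Immature myeloid progenitors held 22.5 ± 4.41 CPM and granulocyte progenitors 16.4 ± 3.54 CPM, with the former higher in 16 of 16 mice (mean log2 difference 0.67, exact permutation test, adjusted p = 0.00195). With thinned cells the difference was 0.27 (exact permutation test, adjusted p = 0.661). *Dnmt3b* held the other 2 pairs that passed against the order, NK and T cell-like below immature myeloid progenitor-like cells (−0.82, exact permutation test, adjusted p = 0.0185) and class II dendritic-like below CFU-E-like cells (−1.33, adjusted p = 0.0493). Neither passed with thinned cells (−0.80 and −2.04, exact permutation test, adjusted p = 0.269 and 0.0911). The class II dendritic-like pair also did not pass without the WT vehicle mice (−1.64, exact permutation test, adjusted p = 0.0568). Plasma cell-like, monocyte-like and erythroblast-like cells were lowest, at 5.18 ± 4.92, 5.10 ± 4.61 and 3.79 ± 3.22 CPM, on 5, 32 and 15 UMIs.

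*Dnmt1*, the maintenance enzyme, was spread more evenly. Erythroblast-like cells, of which hashtags assigned only 970 of 6264 to a mouse (4662 of 15438 for CFU-E-like cells), stood highest at 212, 244, 253 and 232 CPM, and plasma cell-like cells lowest at 74.8, 106, 62.9 and 73.9 CPM. The groups of 4 values did not overlap, and outside the WT vehicle group erythroblasts were higher in 11 of 11 mice with both types (mean log2 difference 1.53, exact permutation test, adjusted p = 0.0013). The other types lay between 127 ± 18.2 CPM in immature neutrophil-like cells and 216 ± 103 CPM in HSC-like cells, and only 2 of the 16 neighbouring pairs passed the test, those at the ends of the order, which also passed with thinned cells. Across the 17 types *Dnmt1* ran with the mean level of 20 S phase genes (Spearman's rho = 0.63), while for the other members rho lay between −0.12 and 0.33. These 17 points share libraries, and the correlation is given as a description.

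Of the TET genes, *Tet1* had the steepest course. HSC-like cells held 59.5, 167, 58.4 and 71.8 CPM in the 4 WT vehicle mice, on 53 UMIs in all, with mouse 2 apart from the others. Multipotent progenitors followed at 35.5, 95.0, 51.0 and 55.3 CPM, and over all mice HSC-like cells were higher in 15 of 15 (mean log2 difference 0.44, exact permutation test, adjusted p = 0.00195), and in 11 of 11 with both types outside the WT vehicle group (0.40, adjusted p = 0.00735). With thinned cells the difference was 0.18 (exact permutation test, adjusted p = 0.912). Basophil-like cells held 53.9 ± 13.2 CPM, and the level fell to 16.8 ± 6.81 CPM in immature myeloid progenitors, 11.1 ± 2.25 CPM in granulocyte progenitors and 2.78 ± 2.07 CPM in monocyte-like cells. A *Tet1* UMI was found in 43 of 242 HSC-like cells (17.8%) against 2 of 235 plasma cell-like cells (0.851%) of these mice, at median depths of 2742 and 2313 UMIs per cell.

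*Tet2* was high in monocyte-like, dendritic-like and basophil-like cells. Monocyte-like cells held 62.5, 67.2, 74.8 and 87.4 CPM in the WT vehicle mice, plasmacytoid dendritic-like cells 75.3 ± 13.6 CPM (n = 3) and class II dendritic-like cells 69.8 ± 16.1 CPM (n = 3). Basophil-like cells held 67.6 ± 10.7 CPM and multipotent progenitors 61.4 ± 16.1 CPM, and no step among these 5 types passed the test. HSC-like cells held 42.5, 33.4, 38.9 and 46.6 CPM, on 33 UMIs in all. These were all below the monocyte-like values, a pair that was not tested. On the granulocytic side the level was 45.2 ± 4.16 CPM in immature myeloid progenitors, 38.8 ± 3.73 CPM in granulocyte progenitors and 25.7 ± 7.25 CPM in immature neutrophil-like cells. The erythroid and megakaryocytic types were low, with 28.5 ± 6.68 CPM in megakaryocyte-erythroid progenitors, 20.0 ± 6.28 CPM in megakaryocyte progenitors, 18.7 ± 1.91 CPM in CFU-E-like cells (colony-forming erythroid precursors) and 14.5 ± 11.8 CPM in erythroblasts. Among neighbours in the order, immature myeloid progenitors exceeded NK and T cell-like cells in 14 of 15 mice (mean log2 difference 0.61, adjusted p = 0.0033), immature neutrophils exceeded megakaryocyte progenitors in 13 of 16 (0.35, adjusted p = 0.0185) and megakaryocyte progenitors exceeded CFU-E-like cells in 15 of 16 (0.55, adjusted p = 0.0049, exact permutation test in each case). The other 13 neighbouring pairs did not pass it. Without the WT vehicle mice the immature neutrophil step did not pass (0.35, exact permutation test, adjusted p = 0.0544). With thinned cells none of the 3 passed, at differences of 1.34, 0.24 and 0.48 (adjusted p = 0.152, 0.892 and 0.644 in the exact permutation test). In the mice outside the WT vehicle group, multipotent progenitors were below monocyte-primed progenitors (−0.19, exact permutation test, adjusted p = 0.026). CFU-E-like cells were below erythroblasts there (−0.28, exact permutation test, adjusted p = 0.047), and both pairs run against the order.

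*Tet3* varied less, from 111 ± 31.1 CPM (n = 3) in plasmacytoid dendritic-like cells and 112 ± 57.6 CPM in common lymphoid progenitor-like cells to 40.5 ± 6.19 CPM in granulocyte progenitors and 24.0 ± 8.92 CPM in plasma cell-like cells. Megakaryocyte-erythroid progenitors exceeded immature myeloid progenitors in 13 of 16 mice (mean log2 difference 0.54, exact permutation test, adjusted p = 0.0033), also with thinned cells. NK and T cell-like cells stood just above megakaryocyte-erythroid progenitors in the WT vehicle mice and below them in 12 of the 15 mice with both types, so that this pair passed the test against the order, though not with thinned cells, where the difference was −0.94 against −0.53 (exact permutation test, adjusted p = 0.0797).

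The isocitrate dehydrogenases had separate patterns. *Idh1* stood highest in monocyte-like cells, at 119, 115, 131 and 91.5 CPM, above immature myeloid progenitors in 16 of 16 mice (mean log2 difference 0.74, exact permutation test, adjusted p = 0.00195), also with thinned cells. Immature myeloid, granulocyte and monocyte-primed progenitors held 50.3 ± 11.7, 48.7 ± 6.62 and 46.4 ± 15.9 CPM and did not differ beyond the spread between mice. HSC-like cells held 17.1 ± 12.2 CPM on 11 UMIs, multipotent progenitors 17.7 ± 3.34 CPM and CFU-E-like cells 5.89 ± 1.94 CPM. *Idh2* was highest in immature myeloid progenitors, at 229, 231, 209 and 218 CPM, and lower in monocyte-primed progenitors (190 ± 28.6 CPM), where the step passed the test in 15 of 16 mice (mean log2 difference 0.23, exact permutation test, adjusted p = 0.00195) but not with thinned cells (0.15, exact permutation test, adjusted p = 0.473). Monocyte-like cells held 80.5 ± 15.4 CPM and immature neutrophil-like cells were lowest at 41.8 ± 11.7 CPM. Monocyte-like cells thus ranked 1 of 17 types for *Idh1* and 11 of 17 for *Idh2*.

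**Figure D1:**
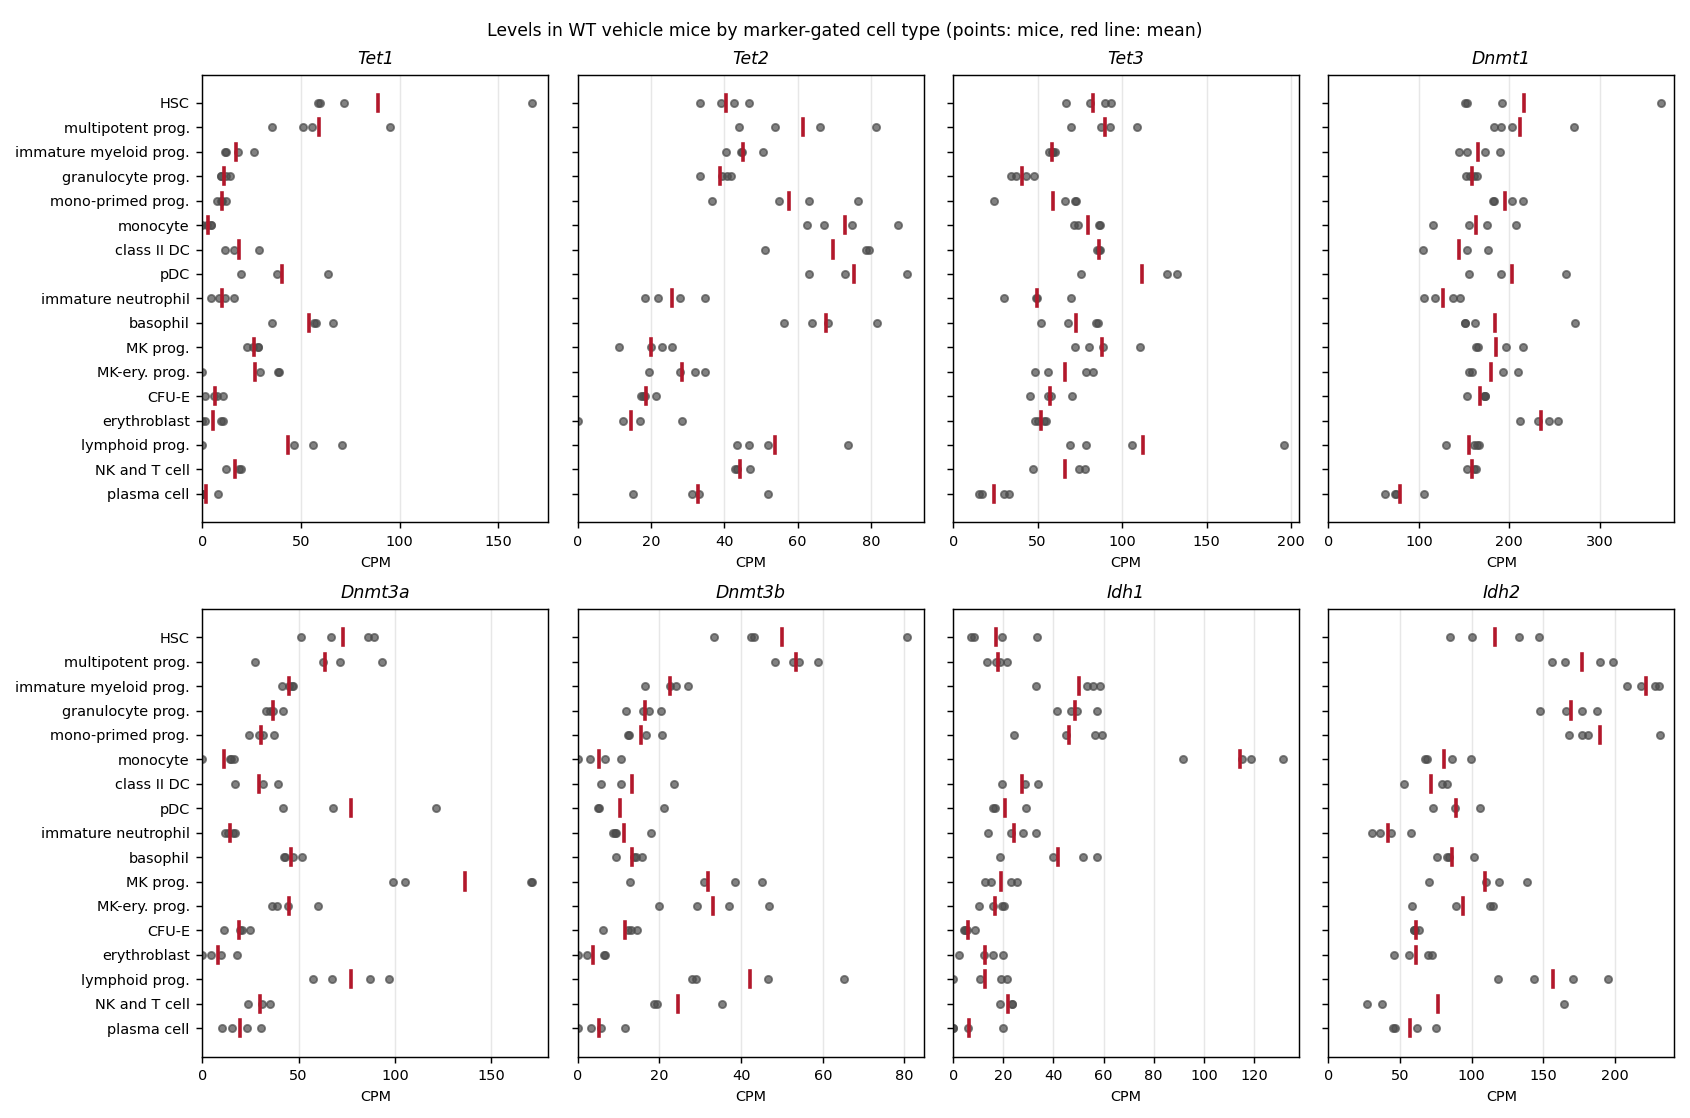
Level of each gene (x axis, CPM, linear) by marker-gated cell type (y axis) in WT vehicle mice; each point is a mouse with at least 10 cells of the type and the red line is the mean. *Tet1* is highest in HSC-like cells at 58.4 to 167 CPM, *Dnmt3a* in megakaryocyte progenitor-like cells, *Idh1* in monocyte-like cells at 91.5 to 131 CPM and *Idh2* in immature myeloid progenitor-like cells.

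Over the same 17 types the pairs of members most alike were *Tet1* and *Dnmt3a* (Spearman's rho = 0.85), *Dnmt3a* and *Dnmt3b* (0.75) and *Tet1* and *Tet3* (0.75), while *Tet2* came closest to *Tet3* (0.57) and *Idh1* (0.51). Among 8912 genes compared, those most like each member were, in order, *Epm2aip1*, *Tbc1d4* and *Trp53bp1* for *Tet1* (0.89 to 0.87), *Ccdc50*, *Gng2* and *Gm2a* for *Tet2* (0.95 to 0.94), and *Smg6*, *Nufip2* and *Csnk1d* for *Tet3* (0.90). For *Dnmt1* they were *Rnf168*, *Cep57l1* and *Chaf1b*, a subunit of the replication-coupled histone chaperone that is also among the S phase genes (0.89 to 0.86). For *Dnmt3a* they were *Mylk*, *Hp1bp3* and *Pstk* (0.93 to 0.91), and for *Dnmt3b* *Btbd9*, *Pfkl* and *Zmym3* (0.94 to 0.93). For *Idh1* they were *F630028O10Rik*, *Arpc1b* and *Rin3* (0.90 to 0.88), and for *Idh2* *As3mt*, *Dctpp1* and *Zfp330* (0.92 to 0.89).

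The targeted gene came first in the comparison of genotypes. In the sum over all assigned cells, *Tet2* was at 35.0, 31.0, 43.7 and 46.9 CPM in WT vehicle mice, 46.2, 44.96, 38.8 and 36.4 CPM in *Tet2*-KO vehicle mice, 53.4, 60.0, 61.7 and 54.2 CPM in WT IL1β mice, and 77.9, 68.5, 62.0 and 59.1 CPM in *Tet2*-KO IL1β mice. The knockout groups were not below the WT groups. A 3′ count reads the end of a transcript whether or not exons further up have been removed, so these values do not show whether the alleles were deleted. With vehicle the log2 fold change of *Tet2* in *Tet2*-KO against WT was 0.10 ± 0.11 (SE) in all cells. Over 15 cell types it had a median of 0.07 and ran from −0.52 to 0.65, with 2 at an unadjusted p under 0.05 (smallest adjusted p = 0.899 in edgeR's test). With IL1β it was 0.26 ± 0.11 in all cells with a median of 0.27, and 13 of 15 types were above 0 (14 of 15 by mean CPM). None of these tests of *Tet2* was called by edgeR as fitted here. The nearest was in granulocyte progenitor-like cells with IL1β, where *Tet2* was at 50.5, 55.5, 60.0 and 53.0 CPM in WT and 80.8, 74.1, 61.6 and 58.0 CPM in *Tet2*-KO mice. These groups overlapped (log2 fold change 0.39 ± 0.09, adjusted p = 0.067), and this test was called by DESeq2 (0.38, adjusted p = 0.0310) and by edgeR without the filter on low counts (adjusted p = 0.0395), with the pool of mice as a block (0.0481) and with sex as covariate (0.0412).

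**Figure D2:**
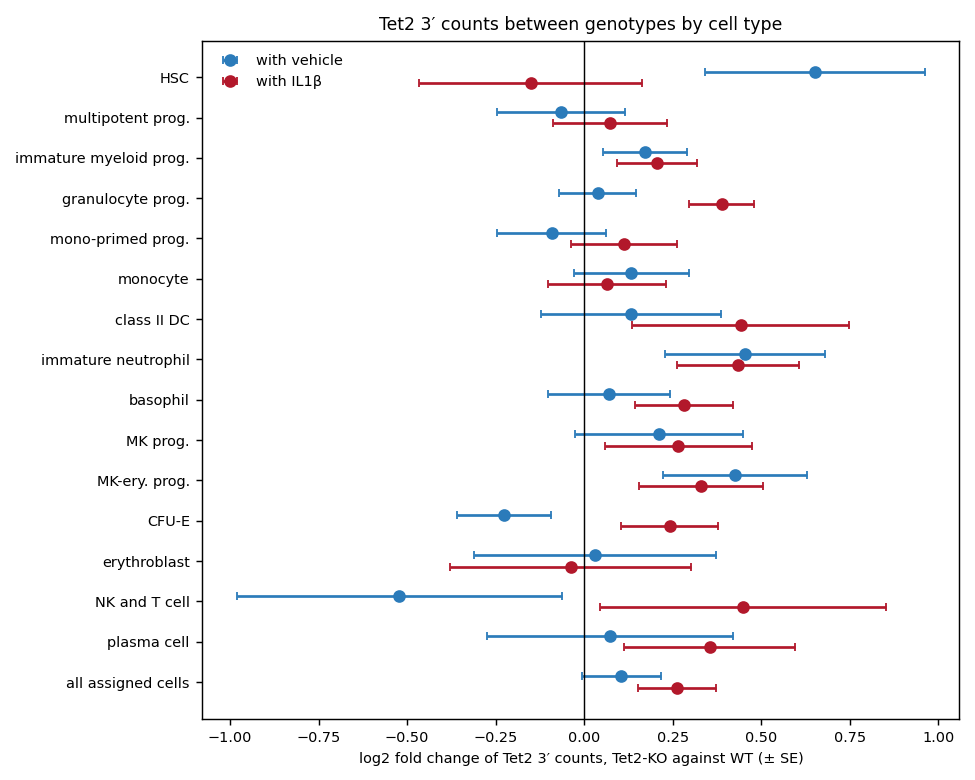
Fitted log2 fold change of *Tet2* 3′ counts (x axis, points with SE bars) in *Tet2*-KO against WT mice by cell type (y axis), with vehicle in blue and with IL1β in red, up to 4 mice per group. Values in all assigned cells are 0.10 with vehicle and 0.26 with IL1β, and no point passes an adjusted p under 0.05.

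Between genotypes edgeR as fitted here called no member in any cell type, the exceptions under other settings being those of *Tet2* in granulocyte progenitors. With vehicle, edgeR called 0 of 105 tests of members (9 had an unadjusted p under 0.05), DESeq2 called 0, and 0.0327% of all tests in these types were called. With IL1β, edgeR called 0 of 105 (5 at an unadjusted p under 0.05), DESeq2 called 1, and 0.182% of all tests were called. In the sum over all cells 0 of 8 were called by either tool, with 1 at an unadjusted p under 0.05 in each contrast and 0.0152% of genes called. With vehicle the groups did not overlap in 7 of the 105 tests of members, and the share over all genes is not given here. Among these, *Dnmt3a* in monocyte-like cells was at 14.5, 0, 14.6 and 16.4 CPM in WT, on 75 UMIs in all. In *Tet2*-KO mice it was at 24.6, 19.5, 23.4 and 27.6 CPM, with no overlap (log2 fold change 0.76 ± 0.22, adjusted p = 0.56). *Dnmt1* in erythroblast-like cells was at 212, 244, 253 and 232 CPM in WT and 192, 174, 176 and 191 CPM in *Tet2*-KO mice, again with no overlap (−0.34 ± 0.11, adjusted p = 1.00). These values did not pass the adjustment over all genes, which does not show that the genotypes were alike.

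IL1β against vehicle asked how the enzymes stood after 5 weeks of inflammation. *Idh1* and *Tet2* were higher after IL1β in several myeloid progenitor types of both genotypes. In WT mice 8 of 105 tests were called, 7 higher and 1 lower (22 had an unadjusted p under 0.05). In *Tet2*-KO mice 8 of 105 were called, all higher (28 at an unadjusted p under 0.05). Of all tests in these types 10.3% were called in WT (4.23% higher, 6.10% lower) and 13.7% in *Tet2*-KO mice (6.05% higher), so the count of members lay near the background and is no result by itself. TMM scaling sets most genes near 0 in each contrast. On mean CPM the median gene of a type with at least 10 CPM moved by 0.09 to 0.22 in WT mice on a log2 scale, and by −0.01 to 0.17 in *Tet2*-KO mice, so ratios of the CPM printed here run above most fitted fold changes.

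*Idh1* in multipotent progenitor-like cells gave the largest called change of a member. It stood at 17.04, 13.6, 21.6 and 18.7 CPM in WT vehicle mice and 50.7, 36.0, 47.4 and 50.9 CPM in WT IL1β mice. In *Tet2*-KO mice it stood at 31.0, 13.9, 25.8 and 19.5 CPM with vehicle and 38.2, 31.6, 48.3 and 38.8 CPM with IL1β. Every IL1β mouse was above every vehicle mouse of its genotype. The log2 fold change was 1.19 ± 0.23 in WT (adjusted p = 0.0016) and 0.59 ± 0.20 in *Tet2*-KO mice (adjusted p = 0.045), and 9.10% and 15.9% of all genes were called in this type. The WT call held in all alternatives and with each mouse left out, whereas the *Tet2*-KO call was lost in 4 of 11 alternatives and in 9 of 16 fits that left out a mouse, with adjusted p up to 0.186. Those mice were *Tet2*-KO vehicle mice 2, 3 and 4, *Tet2*-KO IL1β mice 1, 3 and 4, WT vehicle mice 3 and 4 and WT IL1β mouse 3.

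*Idh1* in granulocyte progenitor-like cells went from 41.3, 57.2, 46.8 and 49.4 CPM to 72.3, 83.6, 84.6 and 78.4 CPM in WT mice, and from 67.0, 49.3, 64.1 and 55.1 CPM to 95.5, 72.5, 77.8 and 83.4 CPM in *Tet2*-KO mice. The groups did not overlap in either genotype. The log2 fold change was 0.55 ± 0.11 in WT (adjusted p = 0.0015) and 0.31 ± 0.10 in *Tet2*-KO mice (adjusted p = 0.022). In immature myeloid progenitor-like cells it was 0.46 ± 0.13 (adjusted p = 0.013) and 0.31 ± 0.11 (adjusted p = 0.043), from 50.3 ± 11.7 to 84.8 ± 13.1 CPM and from 62.9 ± 2.95 to 87.8 ± 7.31 CPM (SD, n = 4). The *Tet2*-KO calls were lost without vehicle mice 2 or 4 or IL1β mouse 1 in granulocyte progenitors (adjusted p up to 0.0921), and in 8 of 16 such fits in immature myeloid progenitors (up to 0.117). There the WT call was lost without WT IL1β mouse 3 (adjusted p = 0.0569). Monocyte-like cells, where *Idh1* stood highest, showed 119, 115, 131 and 91.5 CPM with vehicle and 112, 134, 129 and 105 CPM with IL1β in WT mice, which overlapped (0.02 ± 0.15). The fitted change of *Idh1* was above 0 in 11 of 11 types in both genotypes, and by mean CPM in 10 and 9 of them.

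*Tet2* in granulocyte progenitor-like cells had the smallest adjusted p of any member. It stood at 33.4, 39.3, 40.6 and 41.7 CPM in WT vehicle mice and 50.5, 55.5, 60.0 and 53.0 CPM in WT IL1β mice. In *Tet2*-KO mice it stood at 43.5, 38.9, 38.4 and 33.8 CPM with vehicle and 80.8, 74.1, 61.6 and 58.0 CPM with IL1β. The groups did not overlap in either genotype. The log2 fold change was 0.30 ± 0.11 in WT (adjusted p = 0.040) and 0.65 ± 0.10 in *Tet2*-KO mice (adjusted p = 4.8e-05), where 28.3% and 38.4% of all genes were called. The WT call was lost in 7 of 12 alternatives and without any single WT vehicle mouse or WT IL1β mouse 2 or 3 (adjusted p up to 0.143), while the *Tet2*-KO call held in all of them.

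*Tet2* in immature myeloid progenitor-like cells went from 40.6, 44.8, 44.6 and 50.7 CPM to 67.1, 88.5, 76.3 and 63.6 CPM in WT mice, and from 55.3, 60.7, 44.1 and 43.9 CPM to 83.9, 82.6, 80.7 and 80.0 CPM in *Tet2*-KO mice. Again no values overlapped, and the log2 fold changes were 0.51 ± 0.12 (adjusted p = 0.0047) and 0.55 ± 0.11 (adjusted p = 0.00058). In this type 20.5% and 31.3% of all genes were called. In monocyte-primed progenitor-like cells *Tet2* went from 57.7 ± 16.7 to 98.4 ± 16.3 CPM in WT mice (0.50 ± 0.15, adjusted p = 0.033) and from 59.7 ± 6.51 to 101 ± 16.0 CPM in *Tet2*-KO mice (0.70 ± 0.15, adjusted p = 0.0029), with 11.0% and 13.5% of genes called. The WT call there was lost without WT vehicle mouse 1, 2 or 3 or WT IL1β mouse 2 or 3 (adjusted p up to 0.157). In multipotent progenitor-like cells it was called in *Tet2*-KO mice alone (0.64 ± 0.16, adjusted p = 0.0080), and the fit in WT mice gave 0.50 ± 0.18 (adjusted p = 0.083). HSC-like cells gave 0.64 ± 0.34 in WT (3 mice with IL1β, adjusted p = 0.35) and −0.16 ± 0.28 in *Tet2*-KO mice (adjusted p = 0.81). *Tet2* was above 0 in 13 of 15 types in WT and 14 of 15 in *Tet2*-KO mice, and in 14 of 15 in both by mean CPM.

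**Figure D3:**
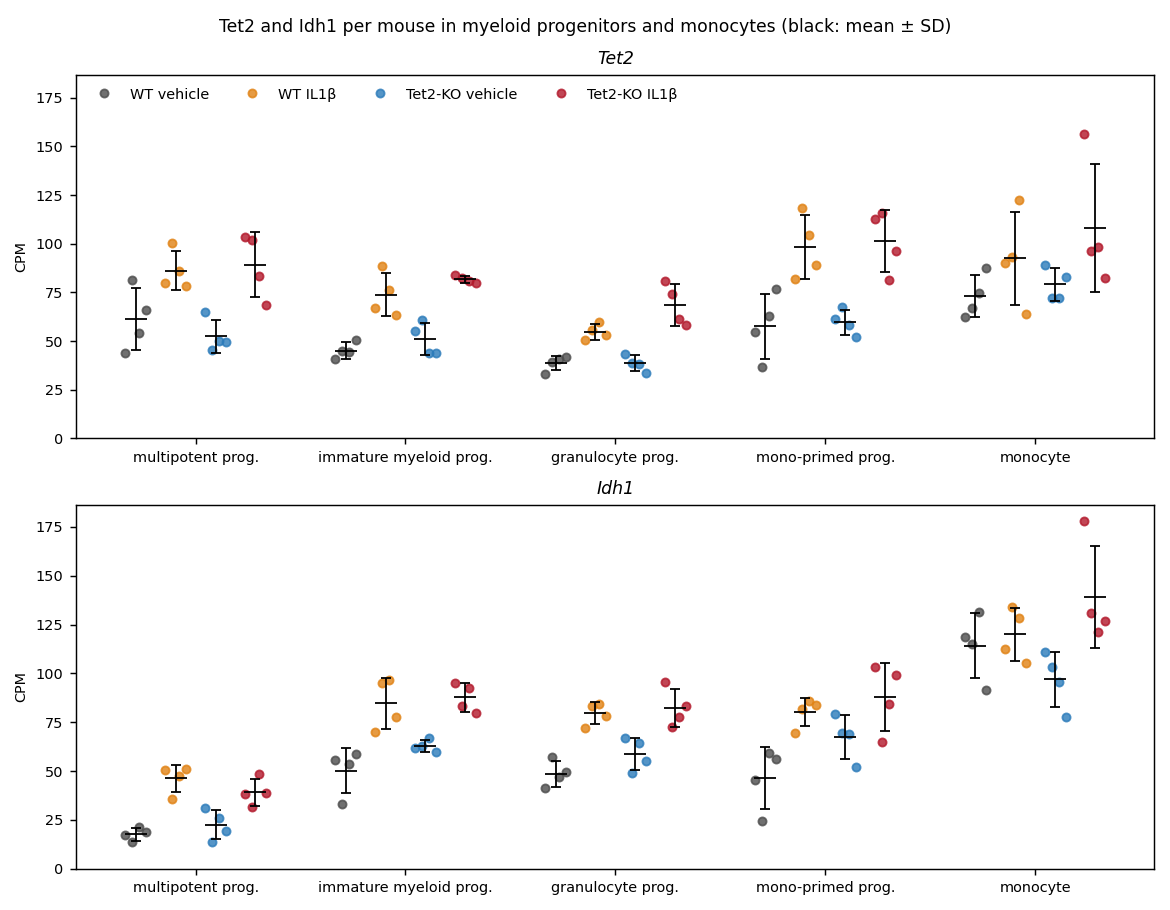
*Tet2* (top) and *Idh1* (bottom) in each mouse (y axis, CPM, linear from 0) in multipotent, immature myeloid, granulocyte and monocyte-primed progenitor-like and monocyte-like cells, by group in color; black lines are mean ± SD over 4 mice. In immature myeloid and granulocyte progenitor-like cells all IL1β mice lie above all vehicle mice of the same genotype for both genes, and in monocyte-like cells of WT mice the groups overlap.

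*Idh2* in immature myeloid progenitor-like cells went from 229, 231, 209 and 218 CPM to 224, 211, 169 and 176 CPM in WT mice, with 2 IL1β mice inside the vehicle range (−0.35 ± 0.11, adjusted p = 0.021). In *Tet2*-KO mice it went from 204, 203, 221 and 221 CPM to 208, 180, 206 and 207 CPM (−0.25 ± 0.10, adjusted p = 0.066). *Idh2* was below 0 in 11 of 15 types in WT and 14 of 15 in *Tet2*-KO mice, but by mean CPM in 7 and 13, so the direction in WT mice depends on the scaling. *Dnmt3b* in CFU-E-like cells went from 12.2, 6.12, 14.4 and 13.03 CPM to 18.0, 22.4, 19.2 and 14.6 CPM in WT mice (0.49 ± 0.17, adjusted p = 0.043), in a type where 20.2% of genes were called. *Dnmt3a* in immature myeloid progenitor-like cells went from 49.8, 40.9, 41.3 and 33.5 CPM to 46.6, 65.8, 60.5 and 55.7 CPM in *Tet2*-KO mice (0.34 ± 0.12, adjusted p = 0.027), with mouse 1 of the IL1β group inside the vehicle range. Each of these 3 calls was lost in at least 3 of 12 alternatives. Leaving out single mice took the adjusted p up to 0.123 for *Idh2* (WT vehicle mouse 1, WT IL1β mouse 3 or 4), to 0.115 for *Dnmt3b* (9 of 16 mice) and to 0.135 for *Dnmt3a* (*Tet2*-KO vehicle mouse 2 or 4, *Tet2*-KO IL1β mouse 2 or 3).

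*Tet1*, *Tet3* and *Dnmt1* passed in no type. *Dnmt1* was fitted below 0 after IL1β in 12 of 15 types of WT mice, with 6 at an unadjusted p under 0.05, and by mean CPM it was lower in 10. In *Tet2*-KO mice it was fitted below 0 in 9 of 15 types, with 0 at an unadjusted p under 0.05, and by mean CPM it was lower in 6 and higher in 9. In erythroblast-like cells of WT mice it went from 212, 244, 253 and 232 CPM to 206, 201, 210 and 211 CPM (−0.31 ± 0.11, adjusted p = 0.079). The mean level of the S phase genes there, on log2 CPM without TMM scaling, went from 7.68 ± 0.04 to 7.79 ± 0.06. On mean CPM the median gene of that type with at least 10 CPM moved by 0.17 on a log2 scale. *Tet3* in HSC-like cells of *Tet2*-KO mice went from 66.9, 67.1, 72.7 and 70.8 CPM to 121, 106, 126 and 107 CPM without overlap (0.61 ± 0.23, adjusted p = 0.099). *Tet1* in immature myeloid progenitor-like cells of *Tet2*-KO mice went from 11.7 to 18.9 CPM on average (0.55 ± 0.22, adjusted p = 0.053).

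**Figure D4:**
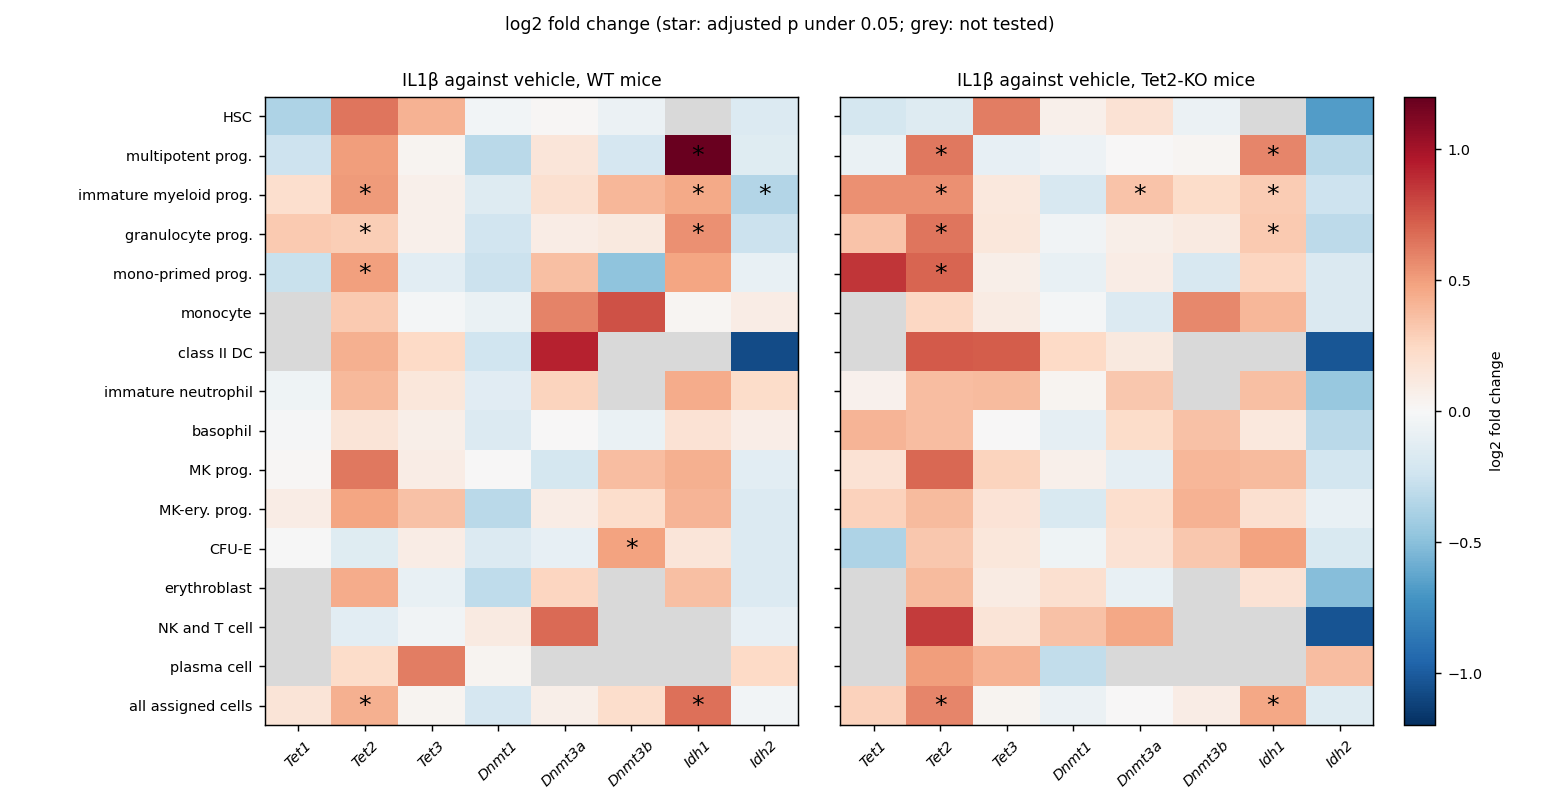
Fitted log2 fold change (color scale, red higher and blue lower with IL1β) of each gene (columns) in each cell type and in all assigned cells (rows), in WT mice on the left and *Tet2*-KO mice on the right; stars mark an adjusted p under 0.05 and grey cells did not pass the filter on low counts. The *Tet2* and *Idh1* columns are red in most rows and carry 13 of the 16 stars of the gated types, with 1.19 as the highest starred value.

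Whether IL1β acted differently in the genotypes was tested as the interaction. It was called in 0 of 105 tests of members by edgeR and in 0 by DESeq2 (7 had an unadjusted p under 0.05 in edgeR), and in 0.0291% of all tests. In all assigned cells 0 of 8 were called (0 at an unadjusted p under 0.05), as were 0.00% of all genes. *Dnmt1* in erythroblast-like cells gave 0.50 ± 0.16 (adjusted p = 0.48) and *Tet2* in granulocyte progenitor-like cells 0.35 ± 0.14 (adjusted p = 0.94). A call in WT or *Tet2*-KO mice alone therefore does not show a difference between them, nor do these counts of 0 show that they responded alike.

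In the sum over all assigned cells, *Idh1* went from 30.1, 28.0, 42.1 and 36.0 CPM to 56.1, 62.6, 58.2 and 57.1 CPM in WT mice (0.66 ± 0.15, adjusted p = 0.0065) and from 52.4, 45.1, 42.9 and 33.8 CPM to 79.8, 49.9, 63.1 and 63.0 CPM in *Tet2*-KO mice (0.46 ± 0.15, adjusted p = 0.029). The *Tet2*-KO call was lost without vehicle mouse 3 or 4 or IL1β mouse 1 or 3 (adjusted p up to 0.0990). *Tet2*, whose values stand above, gave 0.43 ± 0.11 (adjusted p = 0.012) and 0.59 ± 0.11 (adjusted p = 0.0014). These were the 2 of 8 members called in each genotype, in a comparison where 26.1% and 32.0% of all genes were called. The mean shares of cell types among the assigned, lineage-depleted cells also differed, which was not tested. The groups overlapped for each share given next except that of monocyte-like cells in *Tet2*-KO mice. Granulocyte progenitor-like cells were 14.8 ± 5.53% of assigned cells in WT vehicle mice and 24.7 ± 3.62% in WT IL1β mice, and 17.9 ± 9.0% and 31.7 ± 11.8% in *Tet2*-KO mice, whereas monocyte-like cells went from 9.41 ± 3.05% to 5.96 ± 2.18% and from 8.81 ± 1.61% to 3.58 ± 1.07%.

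The levels were therefore also averaged at the fixed cell type mix of the WT vehicle mice over the 15 tested types, a step added after seeing the data. Common lymphoid progenitor-like and plasmacytoid dendritic-like cells are not among these types. A type with under 10 cells in a mouse was left out for that mouse and the other weights were scaled up, so the mix was not fully the same in all mice. *Tet2* then went from 44.9 ± 5.22 to 63.9 ± 8.13 CPM in WT and from 48.9 ± 5.05 to 73.2 ± 7.70 CPM in *Tet2*-KO mice. *Idh1* went from 41.4 ± 3.50 to 59.4 ± 4.24 CPM and from 46.6 ± 4.94 to 63.4 ± 7.31 CPM. In all 4 comparisons the groups of 4 did not overlap, and the exact two-sided permutation test gave p = 0.0286, the smallest it allows here (adjusted p = 0.114 over the 32 comparisons of members). *Dnmt3a* went from 40.5 ± 7.79 to 45.6 ± 5.35 CPM in the plain sum of WT mice, where the groups overlapped, and went from 36.0 ± 4.68 to 46.1 ± 2.26 CPM at the fixed mix in WT and from 39.3 ± 2.58 to 46.0 ± 3.19 CPM in *Tet2*-KO mice with the same p. The same p and no overlap were found in *Tet2*-KO mice for *Tet3*, from 66.2 ± 4.42 to 77.96 ± 5.08 CPM, and *Dnmt3b*, from 18.4 ± 0.352 to 22.6 ± 2.34 CPM. These are CPM without TMM scaling. In the plain sum of all cells the median gene moved by 0.14 in WT and 0.10 in *Tet2*-KO mice on a log2 scale. Its shift at the fixed mix and the share of all genes without overlap there are not given here. The absence of overlap is therefore no result about the members by itself.

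Other genes of the pathway were read from lists chosen by function. Those named had the largest called changes over all lists, at most 5 per contrast and direction in all cells or in HSC-like cells. A gene named in 1 genotype can therefore also have been called in the other. Among 14 partners and readers of DNA methylation, 5 rose and 1 fell with IL1β in all cells of WT mice, and 7 rose and 2 fell in *Tet2*-KO mice. For this and the following lists the share of all genes called in all cells was 26.1% in WT and 32.0% in *Tet2*-KO mice. *Dnmt3l*, the catalytically inactive partner of the de novo enzymes, rose from 0.588 ± 0.257 to 2.39 ± 0.734 CPM in WT (log2 fold change 2.11 ± 0.42, adjusted p = 0.0028) and from 0.427 ± 0.204 to 2.69 ± 0.945 CPM in *Tet2*-KO mice (2.62 ± 0.41, adjusted p = 0.00055), all low levels. Among 6 tested partners and cofactors of TET proteins, 2 rose in WT and 3 in *Tet2*-KO mice. *Slc23a2*, a vitamin C transporter, rose in both (0.44 ± 0.14, adjusted p = 0.034, and 0.41 ± 0.14, adjusted p = 0.034), the zinc finger gene *Zfp281* in WT (0.37 ± 0.08, adjusted p = 0.0059) and *Ogt*, the O-GlcNAc transferase that binds TET proteins, in *Tet2*-KO mice (0.59 ± 0.16, adjusted p = 0.010). In HSC-like cells of *Tet2*-KO mice *Ogt* rose from 353 ± 79.0 to 606 ± 101 CPM (0.64 ± 0.20, adjusted p = 0.045), in a type where 6.45% of genes were called.

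Of 12 tested genes of base excision and of the removal of oxidised cytosine, 1 rose and 2 fell in all cells of WT mice, and 2 rose and 3 fell in *Tet2*-KO mice, beside 26.1% and 32.0% of all genes called. *Apex1*, the abasic site endonuclease, fell in both genotypes, with log2 fold changes of −0.48 ± 0.09 in WT (adjusted p = 0.0024) and −0.65 ± 0.09 with the knockout (adjusted p = 0.00032). *Gadd45b*, a stress-induced gene linked to demethylation, rose in all cells of *Tet2*-KO mice (0.82 ± 0.26, adjusted p = 0.028). In their HSC-like cells it rose from 7.42 ± 6.40 to 175 ± 113 CPM (3.97 ± 0.66, adjusted p = 0.00025). The interaction of genotype and IL1β was called for 0 genes of any list read here, in HSC-like cells and in all cells. In all cells it was called for 0.00% of all genes. The share in HSC-like cells is not given here. A list gene named in 1 genotype alone therefore does not show a difference between them, nor do these counts of 0 show that they responded alike.

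In 2-oxoglutarate metabolism 6 of 15 genes rose and 4 fell in WT mice, and 1 rose and 5 fell in *Tet2*-KO mice, against the same 26.1% and 32.0%. *Sdha* (194.7 ± 15.1 against 136 ± 10.1 CPM with vehicle) and *Ogdh* rose in WT mice by 0.40 ± 0.06 (adjusted p = 0.00095) and 0.37 ± 0.09 (adjusted p = 0.0078). *Sdhb*, another subunit of succinate dehydrogenase, and *Fh1*, fumarase, fell in both genotypes, with log2 fold changes of −0.74 ± 0.14 and −0.62 ± 0.14 in WT and −0.80 ± 0.14 and −0.69 ± 0.14 in *Tet2*-KO mice. Of 13 genes of methyl donor metabolism 2 rose and 0 fell in WT, and 2 rose and 2 fell in *Tet2*-KO mice, where *Mat2b*, the regulatory subunit of methionine adenosyltransferase, rose (0.43 ± 0.06, adjusted p = 0.00032) and *Mtap* fell (−0.67 ± 0.15, adjusted p = 0.0037). The S phase list had 1 gene higher and 3 lower of 20 in WT, with 0 up and 3 down in *Tet2*-KO mice, shares below the 26.1% and 32.0% of all genes, and *Gins2* was fitted at −0.89 ± 0.18 and −0.79 ± 0.18 and *Tyms* at −0.66 ± 0.12 in WT. The median fold change of the lists lay between −0.15 and 0.19 against 0.02 and 0.01 over all genes in WT and *Tet2*-KO mice. Between genotypes edgeR called no gene of these lists in HSC-like cells or in all cells, with either treatment, and up to 6 of a list had an unadjusted p under 0.05. The share of all genes called was 0.115% with vehicle and 0.0384% with IL1β in HSC-like cells, and 0.0152% in all cells with either, so a count of 0 does not set these lists apart.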

How the data were processed

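Lineage-depleted marrow from 16 mice was measured by 10x 3′ single-cell RNA sequencing in 8 libraries. The deposited matrices hold UMI counts per gene and cell barcode, together with hashtag counts, which the authors made with Cell Ranger 3.1.0 on mm10 (Seurat 3.2.3 is also named in the submitters' processing notes). A 3′ library counts transcript ends, so coding changes further up are not seen. Cells were assigned to mice with HTODemux (Seurat 5.3.0), which also marked doublets. Doublets and cells without a call were left out of values per mouse. Cell types were gated on log-normalised marker levels, with at least 2 markers detected, a mean score of at least 0.3 and a lead of 0.1 over the next type. Counts were summed by mouse and type (at least 10 cells per mouse and 3 mice per group) and fitted in all 4 groups together with edgeR 4.0.16 (R 4.3.3), quasi-likelihood test, TMM scaling and Benjamini-Hochberg adjustment over all genes tested in a type. DESeq2 1.42.0 was an alternative. The fits were tested on simulated counts. Levels of neighbouring types were compared within mice by exact permutation of signs on log2(CPM + 1). The adjusted p-values rest on the spread between mice, 2 of which share each library and can be mixed by hashtag errors. Of the 15 types tested, 105 pairs of member and type passed the filter on low counts. *Dnmt1*, *Idh2*, *Tet2* and *Tet3* passed it in 15, *Dnmt3a* in 14, *Idh1* in 11, and *Tet1* and *Dnmt3b* in 10. All 8 members were named by rule, and of the other lists the genes with the largest called changes. The members and lists were chosen with earlier results of these data known. Mouse numbers were not taken to pair the samples, since r was over 0.1 in only 9 of 24 same-numbered pairs. Between the vehicle groups it was over 0.1 in 3 of 4 (0.15 to 0.43). The median r was 0.09 between mice of the same pool number and −0.07 between others.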

Additional observations from a re-analysis of the deposited data

Results flagged for a closer look

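Of 72 groups of 4 mice examined for a mouse far from the other 3, 3 were picked out, and chance picks out about 1 in 20. *Dnmt1* over all assigned cells stood at 178.9 CPM in WT IL1β mouse 3, against 153 to 156 CPM in the other mice of its group. *Dnmt3a* over all assigned cells stood at 70.1 CPM in *Tet2*-KO vehicle mouse 2, against 36.3 to 40.4 CPM in the others. *Idh2* in immature myeloid progenitor-like cells stood at 180.3 CPM in *Tet2*-KO IL1β mouse 2, against 206 to 208 CPM in the others. WT IL1β mouse 3 is also the mouse with *Xist* in 21.5% of its cells, and the part of that mixture in its *Dnmt1* level was not tested.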

How the results depend on the processing

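No call between groups changed direction under the alternatives named in this paragraph. With IL1β, *Tet2*-KO against WT gave 1 call in place of 0 with DESeq2, without the filter on low counts, with the replicate block of pools (mice 1 and 2 against 3 and 4) and with sex as covariate, a choice made after seeing the data. It was *Tet2* in granulocyte progenitor-like cells each time (adjusted p = 0.0310 to 0.0481 in edgeR or DESeq2). IL1β in WT gave 5 calls in place of 8 with DESeq2, 5 with mouse number as replicate block, 5 with the S phase level as covariate and 4 with the library as replicate, and 3 to 10 when single mice were left out (3 without WT IL1β mouse 3, 4 without WT vehicle mouse 1, 5 without WT vehicle mouse 2 or WT IL1β mouse 2). IL1β in *Tet2*-KO mice gave 6 to 12 in place of 8 (7 with mouse number as replicate block) and 4 to 13 without single mice (13 and 4 without *Tet2*-KO vehicle mouse 1 and 4, 5 without *Tet2*-KO IL1β mouse 1). Over all assigned cells the 2 calls became 1 in each genotype with the library as replicate and with the hashtag ratio call, and 1 to 2 in *Tet2*-KO mice without single mice. Of 128 neighbouring pairs, 30 were called. The number was 0 with only WT vehicle mice, where 4 mice cannot pass, 29 without that group (23 of the 30 kept), 7 with cells thinned to 1500 UMIs (1315 cells left out, 6 of the 30 kept, and 2 *Dnmt3a* pairs of opposite sign, megakaryocyte-erythroid against granulocyte progenitors from 0.29 to −0.13 and plasma cell-like against immature neutrophil-like cells from 0.54 to −0.01), and 24 to 41 without single mice. The causes were not tested. Fits without a mouse or with the library as replicate also hold fewer samples. That was not told apart from the weight of single mice. Mouse numbers were not used as pairs (6 of 16 mice correlated best with their own number). Depth limits HSC-like values, among them those of *Tet1*, *Tet2* and *Idh1*, which rest on 53, 33 and 11 UMIs in WT vehicle mice.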
